A study of Homo sapiens with 10 samples.

Results

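The human mitochondrial genome carries 37 annotated genes, and their transcripts were described here in HCT116 cells with and without KDM5A. The members were all rows whose gene symbol starts with MT-, which gave 37 of the 57993 symbols listed: 13 messenger RNAs, 2 ribosomal RNAs and 22 transfer RNAs. All 37 lie on chromosome M of GRCh38. RNA of 10 libraries was measured in 4 groups. KDM5A-/- cells received a plasmid for a mutant KDM5A (2 libraries, the mutation is not named in the labels), a wild-type KDM5A plasmid (3 libraries) or only the empty vector (3 libraries), and parental HCT116 cells with intact KDM5A received the empty vector (2 libraries). HCT116 is a colorectal carcinoma line, and both the parental and the knockout cells were bought from a supplier. In every group GFP-positive cells were sorted 24 hours after transfection and total RNA was extracted with Trizol. The knockout culture alone was kept in G418, at 300 µg/mL, and all 3 knockout groups come from this purchased line, so genotype, line and drug cannot be told apart. KDM5A is a nuclear demethylase of histone H3 lysine 4, and the series concerns its methylation by SMYD2. The labels do not say whether replicate libraries stem from separate cultures, so the p-values measure only their spread, which may be technical.

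Each library table lists a log2 FPKM-type value, an abundance per transcript length that sums to about the same total in every library. The values below are linear values divided by a library factor, called scaled values, and each difference is on the log2 scale of the scaled value plus 1. KDM5A itself was at 23346 and 22816 with the mutant plasmid and at 13453, 16237 and 15598 with the wild-type plasmid. It was at 12.2, 15.3 and 12.3 in knockout cells and at 13.3 and 17.7 in parental cells with the empty vector. These ranges overlap, and since 1 value is given for the whole gene and the deleted stretch is not named, it does not check the knockout label. Of 10 colorectal epithelial markers, 8 were at 1 or more in all 10 libraries (sum 4263 to 5993), while CDX1 and VIL1 were below 1 in all of them. The sums of 6 fibroblast, 6 leukocyte and 4 endothelial markers were 13.7 to 28.9, 8.62 to 21.7 and 0.466 to 1.42. Both mutant-KDM5A libraries and parental library 2 stood apart in makeup. In these 3 libraries protein-coding symbols made up 88.1% to 88.8% of all signal, against 90.2% to 90.7% in the other 7. Genes of cytosolic ribosomal proteins held 14.9% to 15.5% in the 3 and 12.02% to 13.3% in the 7.

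Mitochondrial DNA is a small circle inside the organelle, read by its own polymerase POLRMT with the factors TFAM and TFB2M. Both strands are copied into long RNAs that cover many genes, and most messenger and ribosomal RNAs are freed when the transfer RNAs between them are cut out by RNase P at the 5′ side and ELAC2 at the 3′ side. The 2 ribosomal RNAs, 12 of the messenger RNAs and 14 of the transfer RNAs come from the heavy-strand promoters. MT-ND6 and the other 8 transfer RNAs are read in the opposite direction. Because a strand's genes start out on shared precursors, differences between their steady levels arise from processing, stability and early ending of transcription as well as from initiation. All 13 proteins are subunits of the respiratory chain or the ATP synthase, whose remaining subunits are encoded in the nucleus. In bulk RNA, a lower level of these transcripts per cell and fewer cells that carry them cannot be told apart.

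The order of the genes on the circle sets which reads can be told apart, and 5 junctions are shown for that reason, from the GENCODE release 29 transcripts, on the + strand of chromosome M of GRCh38, 5′ to 3′. In chrM:1582-1690, capitals mark MT-TV, the valine transfer RNA between the end of the 12S and the start of the 16S ribosomal RNA. In chrM:3210-3304, capitals mark MT-TL1, the leucine transfer RNA that directly follows 16S, with 2 bases between it and MT-ND1. In chrM:8507-8592, capitals mark the 46 bases shared by the reading frames of MT-ATP8 and MT-ATP6, which lie on 1 message. In chrM:10740-10786, capitals mark the 7 bases shared by MT-ND4L and MT-ND4, the other joint message. In chrM:14119-14178, the last bases of MT-ND5 stand in lower case and the capitals mark the end of MT-ND6, whose own message is the reverse complement of these letters.
MT-RNR1, MT-TV and MT-RNR2: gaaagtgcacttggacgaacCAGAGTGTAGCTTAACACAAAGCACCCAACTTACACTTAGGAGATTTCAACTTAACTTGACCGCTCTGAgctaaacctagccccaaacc
MT-RNR2 and MT-TL1: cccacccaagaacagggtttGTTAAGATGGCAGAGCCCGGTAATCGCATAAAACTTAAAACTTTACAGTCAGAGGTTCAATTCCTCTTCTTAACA
MT-ATP8 and MT-ATP6: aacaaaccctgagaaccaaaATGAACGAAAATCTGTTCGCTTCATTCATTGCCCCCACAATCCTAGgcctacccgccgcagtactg
MT-ND4L and MT-ND4: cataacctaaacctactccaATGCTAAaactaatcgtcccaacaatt
MT-ND5 and MT-ND6: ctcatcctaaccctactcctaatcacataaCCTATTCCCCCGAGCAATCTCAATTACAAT
Reads inside the shared 46 or 7 bases fit both genes of a pair, and the strand setting of the counting is not given in the sources used here. The levels of each pair, and of the abutting MT-ND5 and MT-ND6, are therefore not fully separate measurements.

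The transfer RNA class gave no measurement. All 22 transfer RNAs, from MT-TF before 12S to MT-TP at the end of the gene array, were listed at 0 in all 10 libraries. They are 59 to 75 bases long. Outside the mitochondrial genome, 8490 of 8490 loci of up to 150 bases were also listed at 0 in every library, among them all 1559 loci of up to 76 bases. Of the loci of 151 to 200 bases 92.4% (804 of 870) were at 0 in every library, of those of 201 to 300 bases 83.8% and of those of 301 to 500 bases 60.5%. The 0 of a mitochondrial transfer RNA is thus shared with every locus of its length in these tables. No level, fold change or difference between groups is given for this class. MT-ATP8, at 207 bases, was the shortest mitochondrial gene with values above 0.

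**Figure D1:**
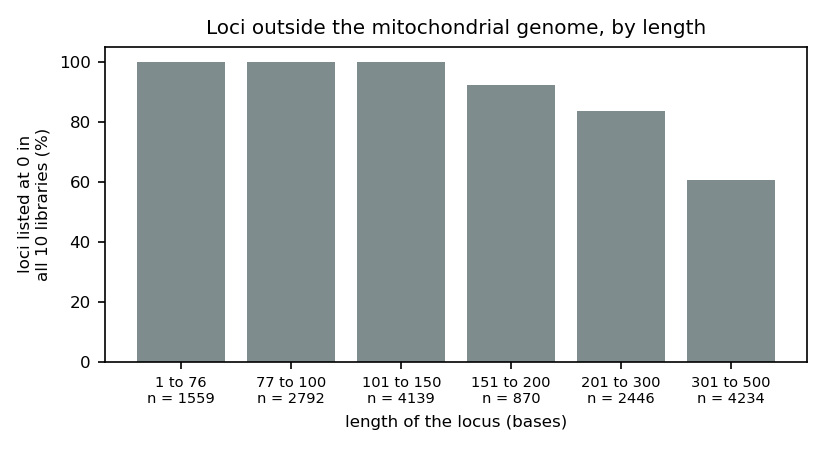
Share of loci outside the mitochondrial genome listed at 0 in all 10 libraries (y axis, percent), by locus length in bases (x axis, bins). Every locus of up to 150 bases was at 0, which covers the 59 to 75 bases of the mitochondrial transfer RNAs, and the share was 92.4% at 151 to 200 bases and 60.5% at 301 to 500 bases.

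The other 15 genes, 13 messenger and 2 ribosomal RNAs, were measured in every library and passed the filter on low values, set at a scaled value of 1 in 2 or more libraries. The messenger RNAs together held 9.94% and 10.8% of the library total with mutant KDM5A and 9.01% to 9.89% with wild-type KDM5A. In the empty-vector groups they held 8.90% to 9.68% in knockout cells and 8.72% and 9.54% in parental cells. Mutant KDM5A thus had the highest shares. Its mean of 10.4% ± 0.617 stood above 9.54% ± 0.465 with wild-type KDM5A and 9.27% ± 0.389 with empty vector (SD, n = 2, 3 and 3). The parental mean was 9.13% ± 0.584 (SD, n = 2).

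Per length, the order of the 15 levels was nearly the same in every library. MT-ATP8, a small ATP synthase subunit, was the highest member in all 10 libraries with a median scaled value of 12709, and in some of them the highest of all genes. MT-ATP6, MT-CO3 and MT-CO2 followed with medians of 9789.5, 9517 and 9076. These 3 exchanged places between libraries and were not separated beyond their spread. MT-CO1 came next in all 10 libraries (median 8759). MT-ND4 (median 7090.4), MT-ND2 (6689), MT-ND4L (6435), MT-RNR2 (5459.8), MT-ND3 (5421), MT-ND1 (5216) and MT-CYB (4925) formed a middle range in which ranks overlapped. MT-ND6 (median 3781), MT-ND5 (3146) and MT-RNR1 (2014) were the 3 lowest, in this order, in all 10 libraries. The highest over the lowest library was 1.34 for MT-CYB and 2.33 for MT-RNR1, the smallest and largest of the 15 spreads. Both ribosomal RNAs thus lay below most messages in these tables, and how ribosomal RNA was handled before sequencing is not given in the sources used here.

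**Figure D2:**
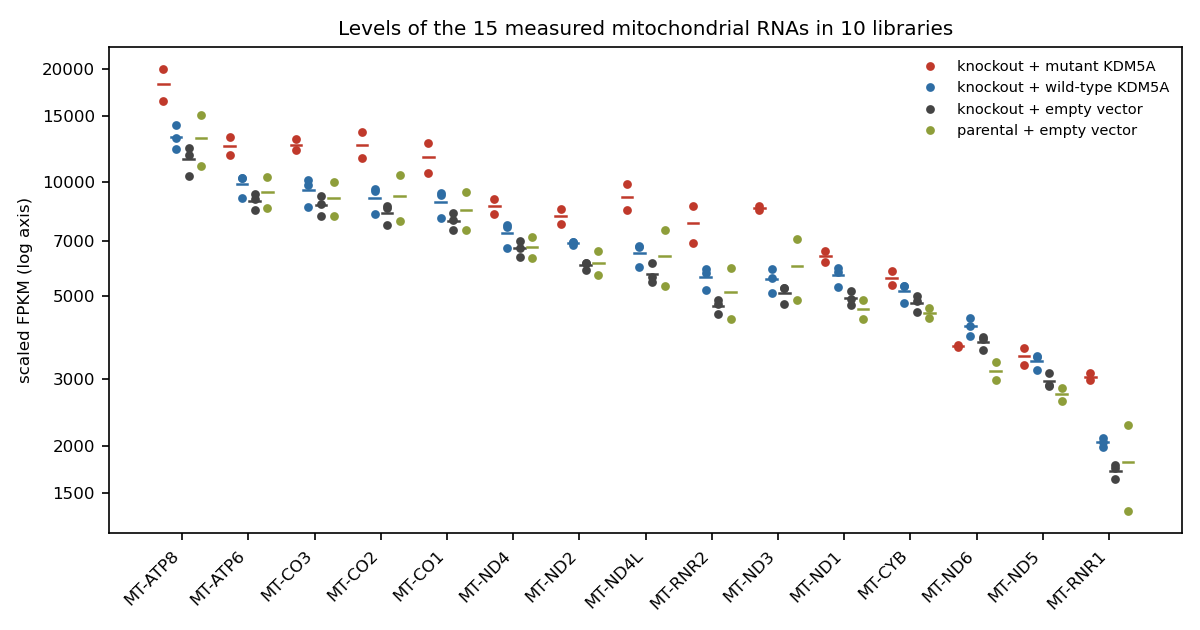
Scaled values of the 15 measured mitochondrial RNAs (y axis, log scale), ordered by their median over 10 libraries (x axis), with 1 point per library and a bar at each group mean. Knockout cells with mutant KDM5A have the highest group mean for every RNA except MT-ND6, from MT-ATP8 (19975 and 16392) down to MT-RNR1 (3118 and 2985).

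Mutant KDM5A against empty vector in knockout cells gave the main difference. Of the 15 measured mitochondrial RNAs, 12 rose with mutant KDM5A, both ribosomal RNAs and 10 of the 13 messenger RNAs, while under quantile normalization 8 were called lower. MT-CYB, MT-ND5 and MT-ND6 did not pass. In the same comparison 16.5% of all 17779 genes tested passed, 9.48% higher and 7.05% lower (limma, Benjamini-Hochberg adjusted p under 0.05). The median log2 difference was 0.78 for the ribosomal RNAs and 0.48 for the messenger RNAs, beside -0.00706 over all genes. At an unadjusted p under 0.05, 14 of the 15 passed, beside 32.2% of all genes. The 2 groups did not overlap for 14 members and for 46.9% of all genes.

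The 12S and 16S ribosomal RNAs form the small and large subunit of the mitochondrial ribosome, and they were among the 3 largest differences. MT-RNR1 had scaled values of 3118 and 2985 in the mutant-KDM5A libraries, 1979.6, 2094 and 2049 in the wild-type-KDM5A libraries, 1775, 1629.5 and 1740.3 in the empty-vector knockout libraries and 1340.0 and 2271 in the parental libraries. Both mutant-KDM5A libraries stood above every other library, while parental library 2 was the highest of the rest. The mean of 3051 ± 94.4 with mutant KDM5A was 1.78 times the mean of 1715 ± 75.8 with empty vector (SD, n = 2 and 3), a log2 difference of 0.83 with a standard error of 0.17 (limma, Benjamini-Hochberg adjusted p = 0.0151). MT-RNR2 had scaled values of 8664 and 6906 in the mutant-KDM5A libraries, 5175, 5901 and 5744 in the wild-type-KDM5A libraries, 4741, 4478 and 4869.7 in the empty-vector knockout libraries and 4338 and 5908 in the parental libraries. The pattern over libraries was that of MT-RNR1, with the mutant groups apart and parental library 2 next to the highest wild-type library. The log2 difference from empty vector was 0.72 with a standard error of 0.14 (limma, Benjamini-Hochberg adjusted p = 0.0124). Ribosomal per messenger RNA of the mitochondrion was 8.67% and 9.20% with mutant KDM5A and 7.99% to 8.13% with wild-type KDM5A. It was 7.39% to 7.61% in empty-vector knockout cells and 7.10% and 8.26% in parental cells.

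Cytochrome c oxidase, complex IV, takes its 3 catalytic core subunits from the mitochondrial genome. MT-CO1 was at 12738 and 10592 in the mutant-KDM5A libraries, 8043, 9370.4 and 9236 in the wild-type-KDM5A libraries, 7924, 7470.0 and 8282 in the empty-vector knockout libraries and 7479.9 and 9407 in the parental libraries. MT-CO2 was at 13567 and 11631 in the mutant-KDM5A libraries, 8218, 9621 and 9489 in the wild-type-KDM5A libraries, 8569, 7712 and 8664 in the empty-vector knockout libraries and 7912 and 10459 in the parental libraries. MT-CO3 was at 13051 and 12150.3 in the mutant-KDM5A libraries, 8579, 10169 and 9851 in the wild-type-KDM5A libraries, 8786, 8118 and 9183 in the empty-vector knockout libraries and 8134 and 10005 in the parental libraries. For all 3 the mutant-KDM5A libraries were the 2 highest and did not overlap with any other group. The log2 differences from empty vector were 0.56 for MT-CO1, 0.60 for MT-CO2 and 0.54 for MT-CO3, with standard errors of 0.13, 0.14 and 0.12. Each passed (limma, Benjamini-Hochberg adjusted p = 0.0199, 0.0199 and 0.0169).

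The ATP synthase, complex V, contributes MT-ATP6, part of its proton channel, and MT-ATP8, both read from the joint message whose overlap is printed above. MT-ATP6 showed 13187 and 11794 in the mutant-KDM5A libraries, 9112, 10282 and 10255 in the wild-type-KDM5A libraries, 9045, 8445 and 9324 in the empty-vector knockout libraries and 8527 and 10336 in the parental libraries. MT-ATP8 showed 19975 and 16392 in the mutant-KDM5A libraries, 12276, 14213 and 13089 in the wild-type-KDM5A libraries, 11845, 10426 and 12329 in the empty-vector knockout libraries and 11066 and 15102 in the parental libraries. Mutant KDM5A again held the 2 highest libraries of both. The differences from empty vector were 0.48 with a standard error of 0.11 for MT-ATP6 and 0.65 with a standard error of 0.15 for MT-ATP8 (limma, Benjamini-Hochberg adjusted p = 0.0193 and 0.0212).

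Complex I, the NADH dehydrogenase, has 7 mitochondrially encoded membrane subunits. They spread from the largest messenger RNA difference of the genome to the smallest. MT-ND3 had scaled values of 8433 and 8633 in the mutant-KDM5A libraries, 5097, 5901 and 5583 in the wild-type-KDM5A libraries, 5256, 4744 and 5259 in the empty-vector knockout libraries and 4887 and 7074 in the parental libraries. The mutant-KDM5A libraries were apart from all others, and parental library 2 exceeded the remaining 7. With a mean of 8533 ± 142 against 5086 ± 297 with empty vector (SD, n = 2 and 3), MT-ND3 had a log2 difference of 0.75 and a standard error of 0.14 (limma, Benjamini-Hochberg adjusted p = 0.0112). MT-ND4L had scaled values of 9890.3 and 8444 in the mutant-KDM5A libraries, 5961, 6760.1 and 6756 in the wild-type-KDM5A libraries, 5603, 5427 and 6113 in the empty-vector knockout libraries and 5315 and 7473 in the parental libraries. MT-ND4L differed from empty vector by 0.68 with a standard error of 0.14 (limma, Benjamini-Hochberg adjusted p = 0.0157). MT-ND4 had scaled values of 9032 and 8258 in the mutant-KDM5A libraries, 6702, 7717 and 7590.5 in the wild-type-KDM5A libraries, 6695, 6351 and 7003 in the empty-vector knockout libraries and 6285 and 7178 in the parental libraries. Its difference was 0.37 with a standard error of 0.10, smaller than that of MT-ND4L on the same message (limma, Benjamini-Hochberg adjusted p = 0.0323). MT-ND1 had scaled values of 6593 and 6164 in the mutant-KDM5A libraries, 5284, 5914 and 5796 in the wild-type-KDM5A libraries, 4908, 4727 and 5147 in the empty-vector knockout libraries and 4341 and 4886 in the parental libraries. MT-ND2 had scaled values of 8479.5 and 7759 in the mutant-KDM5A libraries, 6805, 6950.2 and 6941 in the wild-type-KDM5A libraries, 6109.7, 5844 and 6105 in the empty-vector knockout libraries and 5661 and 6573 in the parental libraries. In both genes each mutant library exceeded every other one. MT-ND1 and MT-ND2 differed from empty vector by 0.37 and 0.43, each with a standard error of 0.08 (limma, Benjamini-Hochberg adjusted p = 0.0198 and 0.0115).

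The 3 messages that did not pass lie side by side at the far end of the gene array. MT-ND5 had 3642 and 3277 in the mutant-KDM5A libraries, 3174, 3451 and 3439 in the wild-type-KDM5A libraries, 2879.6, 2894 and 3118 in the empty-vector knockout libraries and 2635 and 2847 in the parental libraries. The mutant-KDM5A libraries lay above the empty-vector ones without overlap, and overlapped with those of wild-type KDM5A. The difference from empty vector was 0.22 with a standard error of 0.08 (limma, Benjamini-Hochberg adjusted p = 0.0809). MT-CYB encodes the only mitochondrially made subunit of complex III. MT-CYB had 5832 and 5332 in the mutant-KDM5A libraries, 4779, 5322 and 5300.4 in the wild-type-KDM5A libraries, 4854, 4532 and 4996 in the empty-vector knockout libraries and 4365 and 4641 in the parental libraries. The mutant-KDM5A libraries were the 2 highest, the lower of them by a narrow margin over wild-type library 2. The difference from empty vector was again 0.22 with a standard error of 0.08 (limma, Benjamini-Hochberg adjusted p = 0.1004). MT-ND6 had 3711 and 3657 in the mutant-KDM5A libraries, 3922, 4356 and 4164 in the wild-type-KDM5A libraries, 3850.3, 3599.8 and 3879 in the empty-vector knockout libraries and 3335 and 2997 in the parental libraries. This message of the opposite strand was the only measured member below 0 in this comparison, at -0.04 with a 95% interval of -0.21 to 0.14 (limma, Benjamini-Hochberg adjusted p = 0.787). That interval lies below the estimates of all 12 members that passed.

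**Figure D3:**
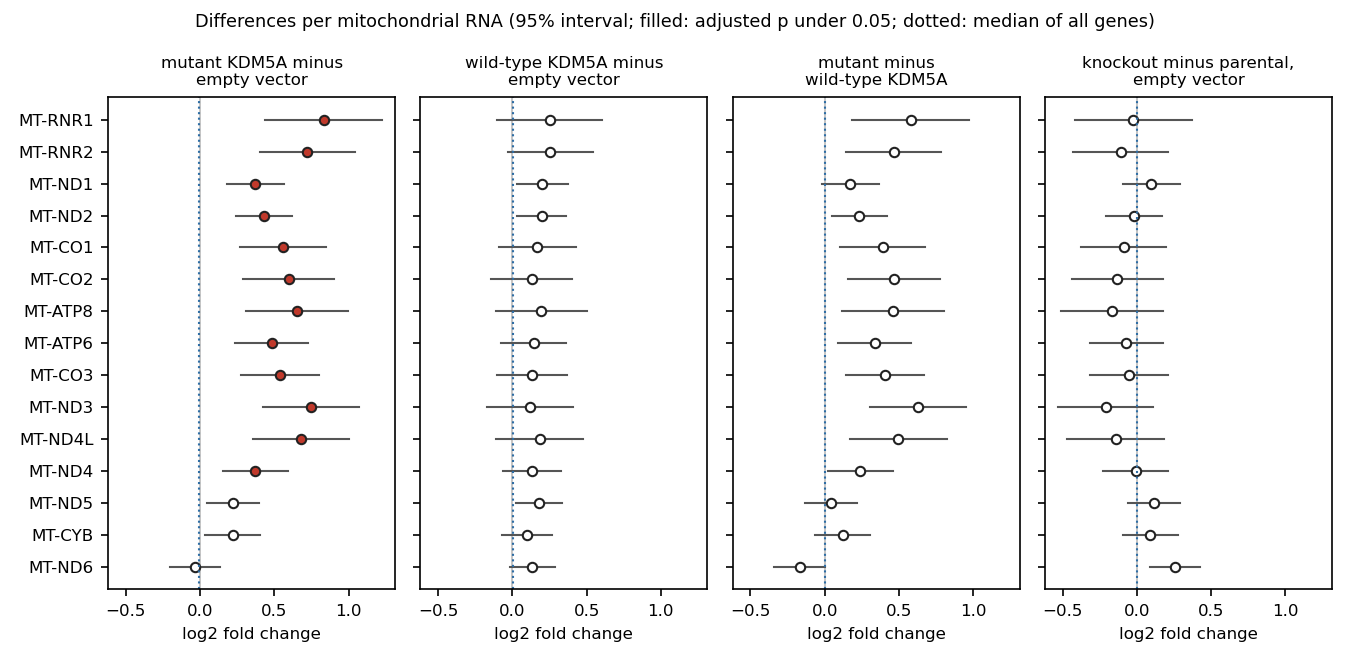
Log2 difference of each measured mitochondrial RNA (x axis, scaled values plus 1) with its 95% interval, in 4 comparisons, genes ordered along the heavy strand with MT-ND6 last. Filled points passed at an adjusted p under 0.05 (limma), which 12 did for mutant KDM5A against empty vector and none did in the other 3 comparisons. Under quantile normalization 8 were instead called lower. The dotted line is the median of all genes.

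How many members passed depended on single libraries. Where 1 library of a group remains, it is assumed to vary like the other groups. Without mutant library 1 none passed, and without empty-vector knockout library 1, 2 or 3 it was 9, 3 or 6. It was 12 without mutant library 2, and 11 to 13 without any 1 of the other libraries. The directions held in these fits: the messenger RNA median was 0.40 to 0.56 and the ribosomal RNA median 0.68 to 0.87. Of all genes, 11.8%, 8.42% and 7.87% passed without empty-vector knockout library 1, 2 or 3, against 16.5% with all libraries. It was 12.9% to 13.5% without a wild-type-KDM5A library. Without mutant library 1, which leaves 1 mutant library, the share of all genes fell as well, so the loss of calls was not confined to the members. With values as deposited, where the median of all genes was -0.30 and 37.1% of them passed, 6 members were called higher and 1 lower. Under quantile normalization, which gives each rank the same value in every library, the 8 called lower were joined by none called higher. In that setting 11.9% of all genes passed. KDM5A, at 23346 and 22816 in the mutant libraries, ranked above every member there, and its part in the reversal was not tested. The 3 libraries of lower protein-coding share include both mutant-KDM5A libraries. That share counts the 13 mitochondrial messenger RNAs themselves. Within groups its SD was 1.57 in parental cells, but 0.0195 with mutant KDM5A, 0.171 with wild-type KDM5A and 0.0842 with empty vector in knockout cells. As a covariate, chosen after seeing the data, it thus draws its slope mostly from the 2 parental libraries. In the fit with it no member passed, beside 1.09% of all genes, which cannot decide what part the makeup has. In that fit the messenger RNA median was 0.31 and the ribosomal RNA median 0.38.

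Parental library 2, which carries no KDM5A plasmid, differed from parental library 1 in the same members. It was higher in 14 of 15, by a median of 0.30 on the log2 scale against -0.01 over all genes, and lower in MT-ND6. The difference between the 2 parental libraries was 0.76 for MT-RNR1, 0.53 for MT-ND3 and 0.49 for MT-ND4L, but 0.11 for MT-ND5, 0.09 for MT-CYB and -0.15 for MT-ND6. Across the 15 genes, which are not independent, it followed the difference between mutant KDM5A and empty vector with a Pearson r of 0.97 and a Spearman rho of 0.99, given as a description. Those comparisons share no library. The makeup that these 3 libraries share therefore moves with the rise of the mitochondrial RNAs, and its part in the result was not tested. A small RNA separated the mutant-KDM5A libraries from each other: RN7SK was at 58.4 and 593 there, against 15.5 to 37.5 in the other 8 libraries.

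In this comparison shorter messages had higher estimates. Over the 13 messenger RNAs the Spearman rho between gene length and the difference of mutant KDM5A against empty vector was -0.57, and over 12491 nuclear protein-coding genes it was -0.27. With the ribosomal RNAs included it was -0.32 over 15 genes, and over the 13 messages it was -0.03 for wild-type KDM5A against empty vector and 0.57 for knockout against parental cells. In mutant KDM5A against empty vector, nuclear genes under 1000 bases had a median difference of 0.28 (384 genes) and those over 5000 bases one of -0.11 (3591 genes). These correlations are descriptions over genes of the same libraries.

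Wild-type KDM5A against empty vector in knockout cells gave no called mitochondrial RNA (0 of 15), where 4.54% of all genes passed, 2.52% higher and 2.02% lower (limma, Benjamini-Hochberg adjusted p under 0.05). At an unadjusted p under 0.05, 3 passed, MT-ND1, MT-ND2 and MT-ND5, a share near the 20.5% of all genes. All 15 estimates were above 0, with medians of 0.14 for the messenger and 0.25 for the ribosomal RNAs, beside 0.000742 over all genes. Under quantile normalization the messenger and ribosomal RNA medians were -0.13 and 0.06. MT-RNR1 was at 2041 ± 57.8 with wild-type KDM5A and at 1715 ± 75.8 with empty vector (SD, n = 3 each), without overlap, and its estimate was 0.25 with a standard error of 0.16 (limma, Benjamini-Hochberg adjusted p = 0.411). The standard error is shared with the parental group, whose 2 libraries differ widely in this RNA. Without parental library 1 or 2 the estimate of MT-RNR1 was 0.25 and 0.25, and that of MT-ND2 0.20 and 0.20. MT-RNR2 had an estimate of 0.25 with a standard error of 0.13, MT-ND1 and MT-ND2 of 0.20 with standard errors of 0.08 and 0.07, and MT-CYB of 0.10 with a standard error of 0.07. Their limma adjusted p-values (Benjamini-Hochberg) were 0.302, 0.178, 0.173 and 0.510. The groups did not overlap for 6 of the 15 members: MT-ND1, MT-ND2, MT-ND5, MT-ND6 and both ribosomal RNAs. Over all genes 32.6% did not overlap, so that this share is near the background. In a fit of only the wild-type and empty-vector knockout libraries, 3 of 15 members were called higher, beside 10.6% of all genes (limma, Benjamini-Hochberg adjusted p under 0.05).

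In this comparison the estimates were lower toward the far end of the heavy strand. Ordered from MT-RNR1, next to the promoter, to MT-CYB, the 14 heavy-strand genes had a Spearman rho of -0.71 and a Pearson r of -0.74 between position and estimate, and the 12 messenger RNAs a rho of -0.55. For mutant KDM5A against the same empty-vector libraries the rho was -0.51 over 14 genes and -0.27 over the messenger RNAs. Within single libraries, each gene set against its mean over libraries, the rho over 14 genes was -0.54 and -0.38 with mutant KDM5A and -0.20, 0.14 and 0.19 with wild-type KDM5A. It was 0.45, 0.41 and 0.69 in empty-vector knockout cells and 0.62 and -0.21 in parental cells. All 3 empty-vector knockout libraries and parental library 1 were thus relatively high at the far end, and parental library 2 was not. These values describe neighbouring genes on shared precursors, which are not independent points.

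**Figure D4:**
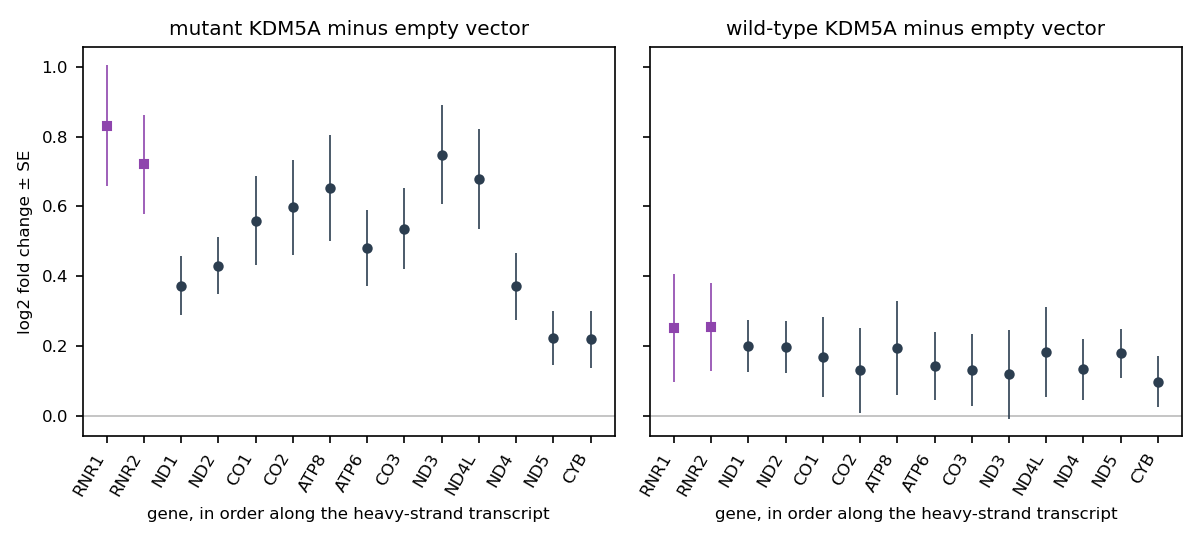
Log2 difference from empty vector in knockout cells (y axis, ± SE) for the 14 heavy-strand genes in their order from the promoter (x axis), with mutant KDM5A left and wild-type KDM5A right; squares are ribosomal and circles messenger RNAs. The ribosomal RNAs are highest on average in both panels (medians 0.78 and 0.25), and MT-CYB, the last gene, is at 0.22 and 0.10.

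Mutant against wild-type KDM5A, both in knockout cells, likewise had 0 of 15 members called, where 0.0562% of all genes passed, 0.0337% higher and 0.0225% lower (10 genes; limma, Benjamini-Hochberg adjusted p under 0.05). At an unadjusted p under 0.05, 11 passed, both ribosomal RNAs among them, beside 20.2% of all genes. Of the 15 estimates 14 were above 0, with medians of 0.34 for the messenger and 0.52 for the ribosomal RNAs. Under quantile normalization those medians were -0.05 and 0.10. MT-ND3, at 8533 ± 142 with mutant and 5527 ± 405 with wild-type KDM5A (SD, n = 2 and 3), had the largest estimate of 0.63 with a 95% interval of 0.31 to 0.95 (limma, Benjamini-Hochberg adjusted p = 0.0931). MT-RNR1 was at 0.58 with an interval of 0.19 to 0.97 (limma, Benjamini-Hochberg adjusted p = 0.125). MT-ND6 was the only one with the opposite sign, at -0.17 with an interval of -0.34 to 0.000979 (limma, Benjamini-Hochberg adjusted p = 0.250). Without parental library 1 or 2, whose spread enters the fit, the messenger RNA median was 0.34 and 0.34. The ribosomal RNA median was 0.52 and 0.53 in these fits. In a fit of only the mutant and wild-type libraries, 2 of 15 members were called higher, beside 2.27% of all genes (limma, Benjamini-Hochberg adjusted p under 0.05). With the protein-coding share as a covariate the estimate of MT-RNR1 was -0.03. The KDM5A level itself, given above, lay higher with the mutant than with the wild-type plasmid without overlap (limma, Benjamini-Hochberg adjusted p = 0.0926), so a difference by dose of the plasmid and by the mutation cannot be told apart.

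Knockout against parental cells, both with empty vector, showed no called member (0 of 15), where 8.94% of all genes passed, 4.84% higher and 4.09% lower (limma, Benjamini-Hochberg adjusted p under 0.05). MT-ND6 alone passed at an unadjusted p under 0.05, a smaller share than the 25.7% of all genes. It averaged 3776 ± 154 in knockout and 3166 ± 239 in parental cells (SD, n = 3 and 2), without overlap, as 42.4% of all genes, an estimate of 0.26 with a 95% interval of 0.08 to 0.43 (limma, Benjamini-Hochberg adjusted p = 0.0701). With parental library 2 alone on the parental side the estimate was 0.33, the highest of the 10 fits without 1 library, which ranged from 0.18 to 0.33. MT-RNR1 was at 1715 ± 75.8 in knockout and 1805 ± 658 in parental cells (SD, n = 3 and 2), an estimate of -0.03 (limma, Benjamini-Hochberg adjusted p = 0.951). Its direction depended on which parental library was used: leaving out parental library 1 gave -0.40 and leaving out parental library 2 gave 0.35, with limma adjusted p-values (Benjamini-Hochberg) of 0.00827 and 0.0297. In fits that leave out a parental library the remaining one is assumed to vary like the other groups, so these p-values hold no replicate information on parental cells. Over all members the medians were -0.05 for the messenger and -0.07 for the ribosomal RNAs, but 0.12 and 0.07 under quantile normalization.

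Ratios of 2 mitochondrial genes within a library do not depend on the library factor, and 5 of them were compared over the 4 groups. The last over the first heavy-strand message, MT-CYB over MT-ND1, was 0.885 and 0.865 with mutant KDM5A and 0.904, 0.900 and 0.914 with wild-type KDM5A. It was 0.989, 0.959 and 0.971 in empty-vector knockout cells and 1.01 and 0.950 in parental cells. All 5 libraries with a KDM5A plasmid lay below all 5 with the empty vector. The ratio differed between the groups (exact permutation test over 25200 arrangements, two-sided, p = 0.00460, adjusted over the 5 ratios 0.0230). It passed in knockout cells alone (exact permutation test, adjusted p = 0.00893). It no longer passed without empty-vector knockout library 3 (0.0635), mutant library 2 (0.0754) or wild-type library 1, 2 or 3 (0.0635, 0.0556 and 0.0595, exact permutation tests, adjusted).

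The other 4 ratios did not pass. The light-strand message over its heavy-strand neighbour, MT-ND6 over MT-ND5, averaged 1.07 ± 0.0685 with mutant KDM5A, 1.24 ± 0.0257 with wild-type KDM5A, 1.28 ± 0.0537 with empty vector and 1.16 ± 0.151 in parental cells (SD, n = 2, 3, 3 and 2; exact permutation test, adjusted p = 0.137). Parental library 2, at 1.05, sat with the mutant libraries at 1.02 and 1.12, and the other 7 libraries were at 1.21 to 1.34. On the joint message, MT-ND4L over MT-ND4 averaged 1.06 ± 0.0514 with mutant KDM5A, 0.885 ± 0.00796 with wild-type KDM5A, 0.855 ± 0.0181 with empty vector and 0.943 ± 0.138 in parental cells (SD, n = 2, 3, 3 and 2; exact permutation test, adjusted p = 0.137). Here too parental library 2, at 1.04, was next to the mutant libraries at 1.02 and 1.10, with the other 7 at 0.837 to 0.890. Without parental library 1 or 2 both ratios passed, at 0.0456 and 0.0397 for MT-ND6 over MT-ND5 and at 0.0198 and 0.00694 for MT-ND4L over MT-ND4 (exact permutation tests, adjusted). MT-ATP8 over MT-ATP6 was 1.45 ± 0.0882 with mutant KDM5A, 1.34 ± 0.0540 with wild-type KDM5A, 1.29 ± 0.0474 with empty vector and 1.38 ± 0.115 in parental cells (exact permutation test, adjusted p = 0.232, SD, n = 2, 3, 3 and 2). The 16S over 12S ribosomal RNA ratio was 2.55 ± 0.329 with mutant KDM5A, 2.75 ± 0.114 with wild-type KDM5A, 2.74 ± 0.0640 with empty vector and 2.92 ± 0.449 in parental cells (exact permutation test, adjusted p = 0.628, SD, n = 2, 3, 3 and 2), so no difference between the ribosomal RNAs was detectable.

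**Figure D5:**
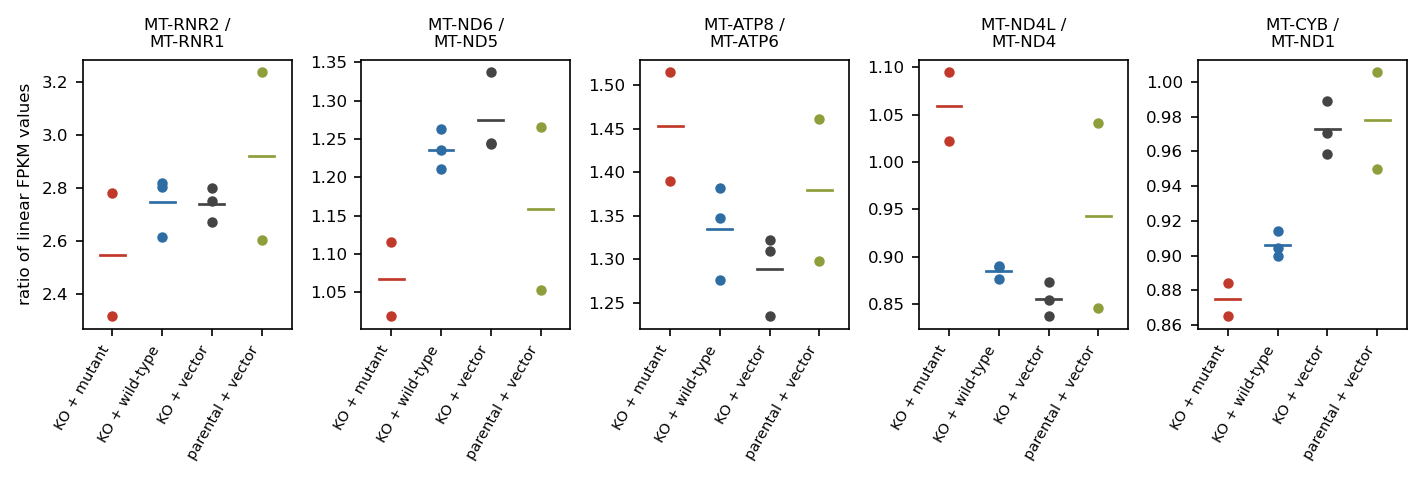
The 5 within-library ratios of linear values (y axes) by group (x axis), with 1 point per library and a bar at each mean. MT-CYB over MT-ND1 is at 0.914 or below in all libraries with a KDM5A plasmid and at 0.950 or above in all with the empty vector, while parental library 2 lies with the mutant libraries for MT-ND4L over MT-ND4 and MT-ND6 over MT-ND5.

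Nuclear copies of mitochondrial genes can take reads from their originals. Of 189 symbols named as such copies, 134 were at 0 in all libraries and 10 passed the filter. MTATP6P1 was the highest, at 1935 to 2740, and MTND2P28 followed at 451 to 644. None of the 10 passed in any of the 4 comparisons (limma, Benjamini-Hochberg). At an unadjusted p under 0.05 there were 0 for mutant KDM5A against empty vector, beside 32.2% of all genes. There was 1 in each of the other 3, beside 20.2% to 25.7% of all genes. How reads were split between a copy and its original is not known, so MT-ATP6 and MT-ND2 are uncertain to that extent.

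Nuclear genes that serve the mitochondrial genome were counted as lists. Of 27 tested genes for mitochondrial transcription and replication, 5 rose and none fell with mutant KDM5A against empty vector, a median of 0.08, and this share is near the 16.5% of all genes called in that comparison. They were GABPB1, a subunit of a nuclear factor for respiratory genes (0.35), MRPL12, a ribosomal protein (0.22), RNASEH1, which removes RNA from RNA-DNA hybrids (0.29), the nuclease EXOG (0.59) and the initiation factor TFB2M (0.35, limma, Benjamini-Hochberg adjusted p = 0.0398). All 5 lost the call in 4 to 7 of the 10 fits that left out 1 library (highest limma adjusted p with Benjamini-Hochberg, 0.0972 to 0.148). With values as deposited MRPL12 and RNASEH1 were at -0.12 and -0.0453. The polymerase POLRMT was at 72.2 ± 2.11 with mutant KDM5A and 68.3 ± 3.08 with empty vector, and TFAM, which packages mitochondrial DNA, at 55.5 ± 5.98 and 54.4 ± 2.64 (SD, n = 2 and 3). These 2, named for their role, did not pass (limma, Benjamini-Hochberg adjusted p = 0.392 and 0.874). With wild-type KDM5A against empty vector, 1 of the 27 fell, the exonuclease MGME1 (-0.34, limma, Benjamini-Hochberg adjusted p = 0.0308), and it lost the call without any 1 of the 6 libraries compared (up to 0.107). For mutant against wild-type KDM5A and between knockout and parental cells none passed. At an unadjusted p under 0.05 there were 7 and 3 (limma), beside 20.2% and 25.7% of all genes.

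Among 31 genes for mitochondrial RNA processing and decay, 4 rose and 6 fell with mutant KDM5A against empty vector, where 9.48% of all genes rose and 7.05% fell. DDX28, an RNA helicase of mitochondrial RNA granules, was at 14.5 ± 0.0869 with mutant KDM5A, 14.7 ± 0.432 with wild-type KDM5A, 19.2 ± 0.131 with empty vector and 12.5 ± 0.240 in parental cells (SD, n = 2, 3, 3 and 2). It fell by 0.38 with mutant KDM5A and by 0.36 with wild-type KDM5A (limma, Benjamini-Hochberg adjusted p = 0.00929 and 0.0152). In knockout over parental cells it rose by 0.58 (limma, Benjamini-Hochberg adjusted p = 0.00200). These comparisons share the empty-vector knockout libraries. The calls for mutant KDM5A and for the knockout held without any 1 library, while with the protein-coding share as a covariate the mutant call was lost (limma, Benjamini-Hochberg adjusted p = 0.122). The call for wild-type KDM5A was lost without any 1 of the 6 libraries compared (limma, Benjamini-Hochberg adjusted p = 0.0533 to 0.0708). REXO2, which degrades short RNAs, rose by 0.50 with mutant KDM5A (limma, Benjamini-Hochberg adjusted p = 0.0108, and 0.0541 without mutant library 1). The ribosomal RNA methylase NSUN4 fell by 0.41 and the RNase P subunit HSD17B10 rose by 0.26 (limma, Benjamini-Hochberg adjusted p = 0.0140 and 0.0155). With values as deposited HSD17B10 was at -0.0805. NSUN4 and HSD17B10 lost the call without mutant library 1 (0.0778 and 0.0867) or empty-vector knockout library 3 (0.0501 and 0.0526). TBRG4, a FASTK family protein, fell by 0.34 with wild-type KDM5A (limma, Benjamini-Hochberg adjusted p = 0.0275, up to 0.111 and lost in 5 of the 10 fits without 1 library). In knockout over parental cells FASTK, needed for MT-ND6 RNA, rose by 0.51 and LRPPRC, which stabilises heavy-strand messages, by 0.25 (limma, Benjamini-Hochberg adjusted p = 0.00320 and 0.0347). The call for FASTK held without any 1 library, and that for LRPPRC was lost in 7 of 10 such fits (up to 0.179). Both fell with mutant KDM5A against the same empty-vector libraries, FASTK by 0.30 and LRPPRC by 0.20 (limma, Benjamini-Hochberg adjusted p = 0.0183 and 0.0489). There FASTK lost the call in 4 and LRPPRC in 8 of 10 such fits (up to 0.0697 and 0.133), and with the covariate both lost it (0.287 and 0.528). In knockout over parental cells 3 of the 31 passed, where 4.84% of all genes rose.

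Enzymes that modify mitochondrial transfer RNAs were measured although their substrates were not. Of 18, none rose and 3 fell with mutant KDM5A against empty vector, a share of called genes near the 16.5% of all genes. MTO1, which modifies the wobble uridine, was at 21.6 ± 2.75 with mutant KDM5A, 24.3 ± 1.01 with wild-type KDM5A, 35.7 ± 2.09 with empty vector and 27.1 ± 0.762 in parental cells (SD, n = 2, 3, 3 and 2). It fell by 0.70 with mutant and by 0.53 with wild-type KDM5A (limma, Benjamini-Hochberg adjusted p = 0.00310 and 0.00967). The first call held without any 1 library and the second was lost without wild-type library 2 (0.0508). ALKBH1 fell by 0.61 and GTPBP3, the partner of MTO1, by 0.56 with mutant KDM5A (limma, Benjamini-Hochberg adjusted p = 0.0176 and 0.0339). ALKBH1 lost the call without mutant library 2 (0.0780), and GTPBP3 in 5 of 10 fits without 1 library (up to 0.197). With wild-type KDM5A, YRDC rose by 0.27 (limma, Benjamini-Hochberg adjusted p = 0.0200, up to 0.0882 and lost in 5 such fits). In knockout over parental cells 4 of 18 rose, where 4.84% of all genes did: TRMT1 by 0.83, MTO1 by 0.39, PUS1 by 0.34 and NSUN2 by 0.21 (limma, Benjamini-Hochberg adjusted p = 0.000776, 0.0302, 0.0404 and 0.0408). Of these, TRMT1 alone held its call without any 1 library, and the other 3 lost it in 6 or 7 of 10 fits (up to 0.0967, 0.222 and 0.132).

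The nuclear genome encodes the partners of the 13 mitochondrial proteins. Of 76 nuclear genes for oxidative phosphorylation subunits, 43 rose and none fell with mutant KDM5A against empty vector, with a median of 0.35. Of all genes 9.48% rose in this comparison, and the other 33 of the list did not pass. With values as deposited 10 were higher and 13 lower, beside 37.1% of all genes called in either direction. NDUFA4, a subunit of complex IV, rose by 0.64 and NDUFB2, of complex I, by 0.58 (limma, Benjamini-Hochberg adjusted p = 0.00277 and 0.00419), and both calls held without any 1 library. The count of higher members was 17 and 18 without empty-vector knockout library 2 or 3, and 2 with the protein-coding share as a covariate. It was lower as well without mutant library 1 or 2, where 1 mutant library remains. Of all genes 8.42% and 7.87% passed without empty-vector knockout library 2 or 3, and 1.09% with the covariate. Wild-type KDM5A gave 0 calls against empty vector and mutant against wild-type KDM5A gave 0. At an unadjusted p under 0.05 there were 8 and 49 (limma), beside 20.5% and 20.2% of all genes. In knockout against parental cells none rose and 5 fell, where 4.09% of all genes fell, NDUFA4 among them by 0.52 (limma, Benjamini-Hochberg adjusted p = 0.00590). How many fell depended strongly on which parental library was kept. Without 1 library the estimate of NDUFA4 ranged from -0.65 to -0.39.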

How the data were processed

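Per the labels, total RNA of 10 libraries was sequenced on an Illumina NovaSeq or HiSeq instrument, with no statement of which library ran on which. Per the submitters' processing notes, STAR 2.7.1a, Picard, GATK 4.1.2 and Cufflinks 2.2.1 were used with GRCh38, and their order, the annotation release and the strand setting are not given in the sources used here. The authors deposited 1 table per library of 60141 loci with log2 FPKM values. The values show a log2 of a value plus 1, whose linear sums are 999975 to 1000008, so depth and counting precision are unknown. Linear values were summed per symbol, divided by a median-ratio factor (13651 genes at 1 or more in all libraries), filtered at 1 or more in at least 2 libraries (17779 genes) and tested in R 4.3.3 with limma 3.58.1 (trend, 6 residual and 2.99 prior degrees of freedom) on log2(scaled value + 1). All 10 libraries were in 1 fit of 4 groups, two-sided, with Benjamini-Hochberg adjustment over all genes of a comparison. Within-library ratios were compared by an exact permutation test of the sum of squares between groups. Tests were checked on simulated data. Python 3.11.15, numpy 2.4.6, pandas 2.3.3 and matplotlib 3.10.9 were used. Named are all members, KDM5A and up to 4 called genes of smallest p per list; POLRMT, TFAM, TFB2M, FASTK and LRPPRC with mutant KDM5A and the small RNA and nuclear copies named were added after their values were seen. Members and lists were chosen with earlier results of these data known. Coordinates and sequences are of GENCODE release 29. Alternatives changed the scaling, pseudocount, filter, weights, libraries, threshold and block.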

Additional observations from a re-analysis of the deposited data

How the results depend on the processing

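Counts of called mitochondrial RNAs are given as in the report first, and brackets hold the share of all genes called in the same setting. For mutant KDM5A against empty vector the count of 12 (16.5%) became 7 with values as deposited (37.1%). It became 8, all lower, under quantile normalization (11.9%), 0 with no filter (5.66%) and 1 with the replicate number as a block (6.24%). With the protein-coding share as a covariate, chosen after seeing the data, the count was 0 (1.09%). Leaving out 1 library gave 0 to 13. Without the 3 libraries of lower protein-coding share, wild-type KDM5A against empty vector had medians of 0.14 for the messenger and 0.25 for the ribosomal RNAs. In this comparison the count of 0 (4.54%) became 1, lower, under quantile normalization (3.49%) and 1 with array weights (11.8%). It became 3 with only the libraries compared (10.6%) and 2 with the covariate (5.97%). Leaving out 1 library gave 0 to 2. For mutant against wild-type KDM5A, 0 (0.0562%) became 2 with values as deposited, 1 higher and 1 lower (8.37%). It became 2 with only the libraries compared (2.27%) and 1 at an adjusted p under 0.1 (3.62%). Leaving out 1 library gave 0 to 9. For knockout against parental cells, 0 (8.94%) became 1 with values as deposited (7.55%) and 2 under quantile normalization (9.40%). At an adjusted p under 0.1 it was 1 (15.3%). Without the 3 libraries the medians were 0.09 for the messenger and 0.24 for the ribosomal RNAs. Leaving out 1 library gave medians of -0.20 to 0.09 and -0.37 to 0.23. Without the 3 libraries no mutant-KDM5A library remains, so its comparisons have no value there.

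Direction changed in these cases among the named genes and the class medians. Quantile normalization gives each rank the same value in every library, and most members hold the top ranks, below KDM5A where its plasmid was given. Under it, mutant KDM5A minus empty vector was -0.35 for MT-ND1, -0.29 for MT-ND2, -0.0386 for MT-ND3, -0.45 for MT-ND4, -0.0743 for MT-ND4L, -0.46 for MT-ND5, -0.43 for MT-CYB, -0.13 for MT-CO1, -0.00435 for MT-CO2, -0.0540 for MT-CO3, -0.29 for MT-ATP6, -0.33 for MT-ATP8 and -0.0826 for MRPL12. Wild-type KDM5A minus empty vector was -0.0187 for MT-ND1, -0.0239 for MT-ND2 and -0.24 for MT-CYB. With values as deposited, where all genes had a median of -0.30 (mutant KDM5A) and -0.10 (wild-type KDM5A) relative to empty vector, the mutant difference was -0.12 for MT-ND5, -0.12 for MT-CYB, -0.12 for MRPL12, -0.0453 for RNASEH1 and -0.0805 for HSD17B10, and the wild-type one -0.0163 for MT-CYB. With the covariate, MT-ND6 was at 0.0825 for mutant KDM5A against empty vector and MT-RNR1 at -0.0317 for mutant against wild-type KDM5A. MT-RNR1 in knockout minus parental cells was 0.0575 as deposited, 0.15 under quantile normalization, 0.36 without the 3 libraries, 0.35 with the covariate and -0.40 to 0.35 without 1 library. The knockout minus parental medians of the messenger and ribosomal RNAs were 0.03 and 0.02 as deposited and 0.08 and 0.23 with the covariate. The cause of these changes was not tested.

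Adjusted p-values of the ratios (exact permutation tests) without 1 library ranged from 0.00198 to 0.0754 for MT-CYB over MT-ND1, 0.0397 to 0.389 for MT-ND6 over MT-ND5, 0.00694 to 0.389 for MT-ND4L over MT-ND4, 0.105 to 0.508 for MT-ATP8 over MT-ATP6 and 0.137 to 0.882 for the ribosomal RNAs. In knockout cells alone MT-ND6 over MT-ND5 was at 0.0238 and MT-ND4L over MT-ND4 at 0.00893. With the replicate number as a block MT-CYB over MT-ND1 was at 0.0521. Whether replicate numbers pair the samples is not known. Same-numbered libraries of wild-type KDM5A and empty vector correlated at -0.04, -0.01 and 0.05 in their deviations from group means. Differently numbered ones correlated at -0.08 to 0.09. In groups this small such values cannot exclude a shared batch. Depth is unknown, so counting error could not be given, and groups hold 2 or 3 libraries.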
